A study of Mus musculus with 7 samples.

Results

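Genes that mark brown and beige adipocytes, the heat-producing fat cells, were examined in epididymal white fat of mice that overexpress XBP1 in adipose tissue. The 9 genes named were Ucp1, Cidea, Cox8b, Dio2, Prdm16, Elovl3, Ppargc1a, Ppara and Cpt1b. A gene was measured where the array annotation paired a probe set (a group of probes for a transcript) with its symbol alone, and the probe set with the highest mean stood for the gene. This gave 8 of the 9 genes, among 19938 genes in all. The only probe set of Cpt1b carries a second symbol, so Cpt1b, the carnitine palmitoyltransferase isoform of muscle and brown fat, was not analysed here.

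The samples were 3 libraries from aP2-XBP1 transgenic mice and 4 from wild type mice, all from males on the C57Bl/6J background, 17 weeks old and fed chow. The transgenics carried the aP2-XBP1 transgene, and the wild type animals were age-matched C57Bl/6J mice without it. The aP2 promoter belongs to Fabp4 and is known to be active in adipocytes and, more weakly, in macrophages. Each library was hybridised to 1 array with a single colour. The values are log2 expression after RMA, a microarray procedure that places all arrays on a common scale, so that a step of 1 is a doubling. The labels number the replicates but do not state whether each came from its own mouse, so every p-value rests on a spread among arrays that can be technical in part. The number of arrays limits the precision.

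Brown adipocytes burn fatty acids to make heat, and beige adipocytes do so inside white depots after cold or adrenergic stimulation. Noradrenaline acts through cyclic AMP to raise lipolysis and transcription of Ppargc1a and Ucp1, while PRDM16 holds the cells in the thermogenic state. Mitochondria then run the respiratory chain against the proton leak through UCP1. Epididymal fat of mice is known as the depot with little capacity for this conversion.

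Before the genes themselves, 3 features of the libraries bear on the results. Xbp1 read 9.76, 9.99 and 9.66 in the transgenic libraries, against 8.90, 9.07, 8.94 and 9.19 in wild type. Every transgenic library lay above every wild type library, as for 3.38% of all probe sets. The unadjusted limma p of Xbp1 was 0.000238, at rank 2 of all probe sets tested. Its limma adjusted p was 0.622, a value shared by probe sets of much lower rank, such as those of Cidea (421) and Cox8b (474). Wild type replicates 1, 3 and 4 were high in 3 of 9 measured epididymal transcripts, Serpina1f, Spink8 and Defb42, which were chosen for a score with these values known; the other 6 were not high in all 3 of those libraries. The mean of the 3 ran from 2.65 to 3.10 in the transgenic libraries, was 2.57 in wild type replicate 2, and ran from 9.31 to 10.05 in the other wild type libraries. Medians of the arrays ran from 3.99 to 4.01 in transgenic and from 4.03 to 4.04 in wild type libraries. No probe set of the 21789 with 1 symbol passed an adjusted p of 0.05 in limma, a linear model fitted to all probe sets at once. At an unadjusted p under 0.05 it found 1050 higher and 679 lower in transgenic fat.

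The upstream sequences of 3 genes are shown because Dio2 and Ppargc1a hold motifs known for cyclic AMP signalling and for XBP1, and Cox8b had the largest difference. Each is the 250 bases before the transcript start in the RefSeq table of build GRCm38.p6, read 5′ to 3′ on the strand of the gene. Capitals mark the motifs found. The Cox8b window is chr7:140900447-140900696, the Dio2 window chr12:90739039-90739288 and the Ppargc1a window chr5:51567726-51567975, all on the minus strand.
Cox8b: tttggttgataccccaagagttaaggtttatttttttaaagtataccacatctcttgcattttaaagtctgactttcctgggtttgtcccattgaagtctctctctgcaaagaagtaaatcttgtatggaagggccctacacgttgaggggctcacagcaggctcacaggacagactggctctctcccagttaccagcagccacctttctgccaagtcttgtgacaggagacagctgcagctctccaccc
Dio2: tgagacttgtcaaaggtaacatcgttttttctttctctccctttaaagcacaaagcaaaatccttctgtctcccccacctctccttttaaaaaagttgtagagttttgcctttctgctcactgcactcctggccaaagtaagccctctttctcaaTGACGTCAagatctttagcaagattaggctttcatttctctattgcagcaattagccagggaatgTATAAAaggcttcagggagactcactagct
Ppargc1a: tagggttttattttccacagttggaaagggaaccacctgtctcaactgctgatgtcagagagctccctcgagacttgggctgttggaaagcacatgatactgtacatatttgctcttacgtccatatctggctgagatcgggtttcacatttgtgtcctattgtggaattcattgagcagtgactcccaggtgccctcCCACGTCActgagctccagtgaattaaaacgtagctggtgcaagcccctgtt

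Both strands were searched for the cyclic AMP response element TGACGTCA, the XBP1 element TGACGTGG, the core TGACGT that both contain, the nuclear receptor site AGGTCA, the TATA box TATAAA, and by name the ER stress element and the PPAR direct repeat, which contains the nuclear receptor site. Dio2 held the cyclic AMP response element at positions -95 to -88 from the start, and a TATA box at -30 to -25. Ppargc1a held the XBP1 element on the opposite strand at -52 to -45, where the printed strand reads CCACGTCA. Of the 32851 windows in the table, 1.55% hold the cyclic AMP response element, 0.563% the XBP1 element, 6.47% the shared core and 12.4% the TATA box. In the Cox8b window none of these letters were found. The Ucp1 window held the nuclear receptor site at -14 to -9, a motif present in 14.0% of windows, and those of Prdm16 and Ppara held none of the 7 motifs. The ER stress element and the direct repeat, in 0.113% and 0.0335% of windows, were in none of the 6 windows kept for these genes. The 6 were counted after windows of a chromosome had been left out. Cidea and Elovl3 have no window among those kept, and no sequence is shown for them here. A match to letters describes the sequence and says nothing of binding.

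Among the 8 genes, the 2 with the widest difference between genotypes were Cidea and Cox8b, and the other 6 differed by at most 0.12 on the log2 scale. None passed the limma test adjusted over all probe sets (0 of 8, smallest adjusted p = 0.622), as for 0% of all probe sets in either direction. At an unadjusted p under 0.05 there were 2 of 8, both higher in transgenic fat, against 4.82% of all probe sets higher and 3.12% lower. The mean was higher in transgenic fat for 7 of 8 genes, against 53% of all probe sets. The median difference was 0.07 for the 8 genes and 0.01 for all probe sets, and that of the 8 genes was 0.03 without transgenic replicate 2 and 0.04 against wild type replicate 2 alone. In whole tissue, a change in the number of cells of a type and a change in RNA per cell cannot be told apart.

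**Figure D1:**
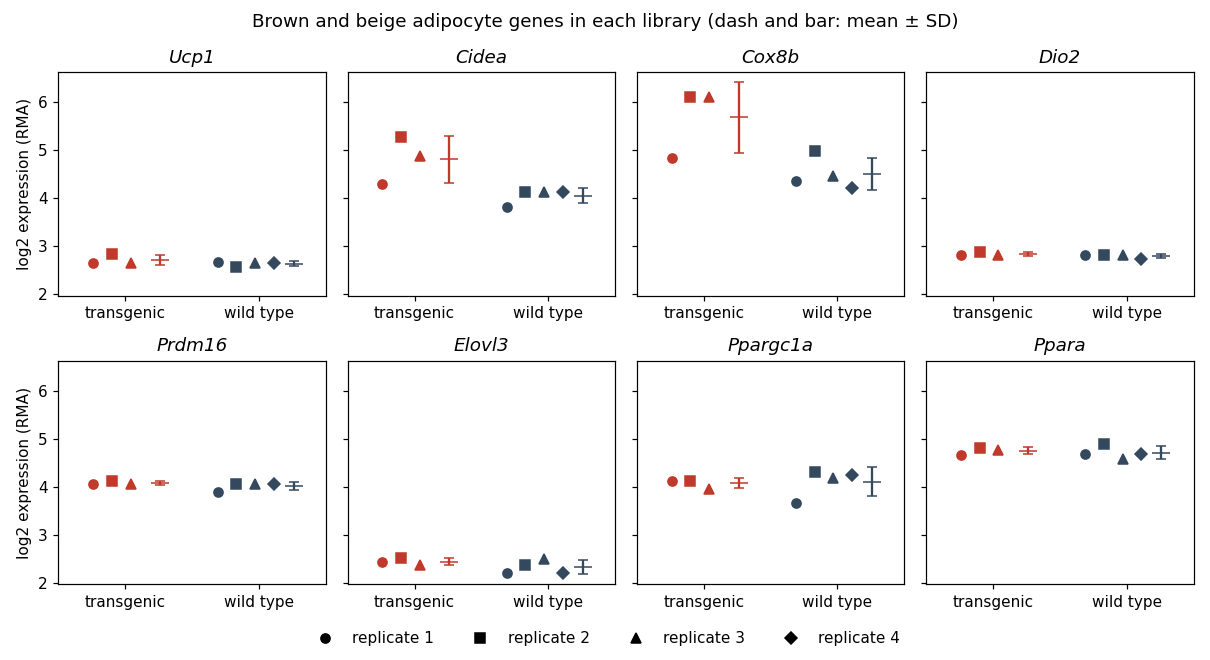
Log2 expression (RMA) of the 8 measured genes, 1 panel per gene, with the 3 transgenic libraries on the left (red) and the 4 wild type libraries on the right (blue). Marker shapes give the replicate number and bars the mean ± SD; transgenic replicates 2 and 3 stand above the wild type libraries for Cidea and Cox8b, while the points of Ucp1, Dio2 and Prdm16 nearly coincide.

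Cox8b encodes an isoform of subunit 8 of cytochrome c oxidase, the last complex of the respiratory chain, found in heart, skeletal muscle and brown fat. Its probe set (10569008) read 4.83, 6.10 and 6.12 in the transgenic libraries, against 4.36, 4.99, 4.46 and 4.22 in wild type replicates 1 to 4. Transgenic replicates 2 and 3 lay above all wild type libraries, and transgenic replicate 1 lay below wild type replicate 2, so the groups overlapped. Means were 5.69 ± 0.74 (SD, n = 3) in transgenic fat and 4.51 ± 0.33 (SD, n = 4) in wild type fat, a log2 difference of 1.18 with a 95% interval of 0.31 to 2.05, or 2.26-fold. The limma adjusted p was 0.622, and an exact two-sided permutation test over 35 arrangements gave p = 0.0571. Set against wild type replicate 2 alone, the wild type library low in Serpina1f, Spink8 and Defb42, the difference was 0.70.

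Cidea encodes a protein of the lipid droplet surface that enlarges droplets and is abundant in brown fat. It read 4.29, 5.27 and 4.87 in the transgenic libraries, against 3.81, 4.13, 4.14 and 4.12 in wild type. Every transgenic library lay above every wild type library, which was so for 1 of the 8 genes and for 3.38% of all probe sets. Transgenic replicate 1 exceeded the highest wild type library by less than the wild type SD of 0.16. Means were 4.81 ± 0.49 (SD, n = 3) in transgenic and 4.05 ± 0.16 (SD, n = 4) in wild type fat, a log2 difference of 0.76 with a 95% interval of 0.21 to 1.31, or 1.69-fold. The limma adjusted p was 0.622, and by exact permutation (two-sided) p was 0.0286, the lowest value 7 libraries can yield. The difference was 0.68 against wild type replicate 2 alone.

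The size of both differences depended on which transgenic libraries were included. Without transgenic replicate 1, Cidea differed by 1.02 and Cox8b by 1.61. Without transgenic replicate 2 they differed by 0.53 and 0.97. Neither gene passed the adjusted test in any of these fits.

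**Figure D2:**
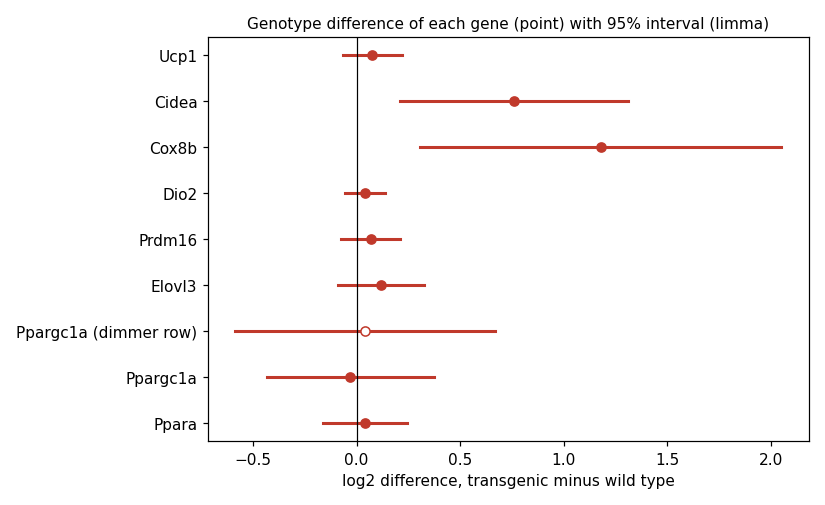
Log2 difference, transgenic minus wild type, of each of the 8 genes (filled points) and of the second probe set of Ppargc1a (open point), with 95% intervals from limma as lines. The intervals of Cidea (0.21 to 1.31) and Cox8b (0.31 to 2.05) lie above 0 before adjustment, and those of the others include 0.

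Ucp1, the uncoupling protein that lets protons back across the inner mitochondrial membrane, read 2.65, 2.82 and 2.65 in the transgenic libraries, against 2.66, 2.56, 2.65 and 2.65 in wild type. All 7 values lay between 2.56 and 2.82, and the groups overlapped. The log2 difference was 0.08 with a 95% interval of -0.07 to 0.22 (limma adjusted p = 0.704). The level was low: the probe sets of 1023 olfactory receptors, genes not known to be used in fat, had means whose 5th and 95th percentiles were 1.87 and 3.07. The means of Ucp1, Dio2 and Elovl3 lay within that range, which describes dim probe sets and sets no level of a single gene. The data do not show that these 3 genes were equal in both genotypes.

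Dio2 encodes the deiodinase that makes active thyroid hormone inside brown fat, and its promoter held the cyclic AMP response element printed above. It read 2.81, 2.88 and 2.81 in the transgenic libraries, against 2.81, 2.81, 2.81 and 2.73 in wild type. The deposited value was identical to its last digit in 5 of the 7 libraries. The log2 difference was 0.04 with a 95% interval of -0.06 to 0.14 (limma adjusted p = 0.748).

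Elovl3, an elongase of very long chain fatty acids that rises in brown fat in the cold, read 2.42, 2.51 and 2.37 in transgenic libraries, against 2.20, 2.37, 2.49 and 2.20 in wild type. The groups overlapped, with wild type replicate 3 above transgenic replicates 1 and 3. The log2 difference was 0.12 with a 95% interval of -0.09 to 0.33 (limma adjusted p = 0.694).

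Prdm16 encodes the transcriptional coregulator that drives brown and beige identity. It read 4.06, 4.13 and 4.06 in the transgenic libraries, against 3.88, 4.06, 4.06 and 4.06 in wild type. Again 5 of the 7 libraries shared 1 value to the last digit, as transgenic replicate 2 stood above it and wild type replicate 1 below it. The log2 difference was 0.07 with a 95% interval of -0.07 to 0.21 (limma adjusted p = 0.725). Ties of 4 or more libraries occurred in 2 of the 8 genes and in 26.5% of all probe sets tested.

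Ppargc1a encodes PGC-1α, the coactivator that couples adrenergic signals to mitochondrial biogenesis, and its upstream window held the XBP1 element printed above. The brighter of its 2 probe sets (10529979) read 4.13, 4.13 and 3.95 in the transgenic libraries, against 3.65, 4.31, 4.19 and 4.26 in wild type. The transgenic libraries lay inside the wild type range. The log2 difference was -0.03 with a 95% interval of -0.43 to 0.37 (limma adjusted p = 0.958). The other probe set (10529977) read 2.88, 2.88 and 2.99 in transgenic libraries, against 2.55, 3.59, 2.57 and 2.79 in wild type, a difference of 0.04 (limma adjusted p = 0.964). In both probe sets wild type replicate 2 was the highest and wild type replicate 1 the lowest of the 7 libraries. The sign of the brighter probe set turned under both other scalings of the arrays, to 0.01 each time.

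Ppara, the nuclear receptor that turns on fatty acid oxidation, read 4.67, 4.81 and 4.77 in the transgenic libraries, against 4.68, 4.90, 4.57 and 4.68 in wild type. Wild type replicate 2 was again the highest library. The log2 difference was 0.04 with a 95% interval of -0.16 to 0.24 (limma adjusted p = 0.875), and it was -0.15 against wild type replicate 2 alone.

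The transgenic libraries were not alike. Transgenic replicate 2 was the highest of the 7 libraries for Ucp1, Cidea, Dio2, Prdm16 and Elovl3, and transgenic replicate 3 was the highest for Cox8b. Transgenic replicate 1 was the lowest transgenic library for Cidea, Cox8b, Ppara and, by a small margin, Ucp1. It tied with transgenic replicate 3 as the lowest for Dio2 and Prdm16. The mean over the 8 genes was 3.73, 4.08 and 3.95 in transgenic replicates 1 to 3, and 3.51, 3.77, 3.67 and 3.62 in wild type replicates 1 to 4. By that mean transgenic replicate 1 lay below wild type replicate 2.

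The input side of the pathway was covered in part. Of 17 genes of adrenergic signalling 11 were measured. Among the 11, the transgenic mean was higher for 5 and lower for 6, with a median difference of -0.01 and 0 passing the adjusted test. The sign of that median turned to 0.03 with the arrays shifted to 1 median, and it was -0.07 against wild type replicate 2 alone. The 4 of smallest p did not pass: Prkacb, a catalytic subunit of protein kinase A, at -0.31, its regulatory subunit Prkar2b at 0.50, the phosphodiesterase Pde3b at 0.50 and Prkar1a at -0.07. Prkar2b read 10.66, 10.61 and 10.62 in the transgenic libraries, against 9.64, 10.62, 10.04 and 10.23 in wild type. Wild type replicate 2 fell within the transgenic range and the other wild type libraries below it.

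Of 8 genes of thyroid hormone signalling, 6 were measured, all with a higher transgenic mean and 0 passing (median difference 0.16). Thrsp, a thyroid-hormone-responsive gene of lipogenesis, read 10.03, 10.81 and 11.52 in transgenic libraries, against 9.08, 9.91, 9.26 and 9.85 in wild type, without overlap (difference 1.26, limma adjusted p = 0.622). The thyroid hormone receptors Thra and Thrb differed by 0.23 and 0.18, and the deiodinase Dio1 by 0.13, and none passed. Dio1 and Dio3 were dim, with means of 2.70 and 2.54 within the range of the olfactory receptors. The median of the list was 0.09 without transgenic replicate 1, and 0.03 against wild type replicate 2 alone.

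Transcription factors that work with PRDM16 went both ways. The transgenic mean was higher for 8 of 15 genes, lower for 6 and identical for 1, Foxc2, the median difference was 0.02 and 0 passed. Against wild type replicate 2 alone 4 of 15 were higher and the median was -0.05, and with the epididymis score as a covariate it was -0.06. The 4 of smallest p were Cebpa (0.61), a driver of adipocyte differentiation, the histone deacetylase Hdac3 (0.21), Zfp516 (-0.15), a cold-induced activator of Ucp1, and the corepressor Nrip1 (0.20). Cebpa read 9.27, 9.05 and 9.26 in transgenic libraries, against 8.28, 9.08, 8.42 and 8.53 in wild type, so wild type replicate 2 fell within the transgenic range. Ebf2, which recruits PPARγ to brown fat genes, differed by 0.17.

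Partners of PGC-1α had 11 of 14 genes with a higher transgenic mean, a median difference of 0.14 and 0 passing. The 4 of smallest p were the nuclear receptors Pparg (0.46) and Ppard (0.13), the mitochondrial transcription factor Tfb1m (0.28) and the mitochondrial fusion protein Mfn2 (0.28). Esrra, the estrogen-related receptor that works with PGC-1α on respiratory genes, differed by 0.22 and Tfam, which packages mitochondrial DNA, by 0.05. Esrra read 6.17 in transgenic replicate 3, and an identical 5.70 in the other transgenic libraries and in wild type replicates 1 and 2. The median was 0.06 without transgenic replicate 3, 0.08 without wild type replicate 1 and 0.02 against wild type replicate 2 alone.

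Of 22 known targets of PPARα, most of them enzymes and carriers of fatty acid oxidation, 20 were measured. The transgenic mean was higher for 14 and lower for 6, the median difference was 0.23, and 0 passed the adjusted test. At an unadjusted p under 0.05 there were 7 higher and 1 lower, Cpt1a (-0.28), against 4.82% of all probe sets higher and 3.12% lower. Cpt2, the carnitine palmitoyltransferase of the inner membrane, read 7.65, 7.96 and 8.13 in transgenic libraries, against 7.06, 7.44, 7.23 and 7.48 in wild type, without overlap (difference 0.61, limma adjusted p = 0.622). Slc25a20, the carnitine carrier, differed by 0.43, Hadhb of the trifunctional protein by 0.45 and the peroxisomal enzyme Ehhadh by 0.46. Groups did not overlap for 5 of the 20 genes, all higher, against 3.38% of all probe sets. The median was 0.14 without transgenic replicate 3 and 0.05 against wild type replicate 2 alone. The 6 genes with a lower mean included Pdk4, the kinase that shuts pyruvate dehydrogenase, at -0.23, with wild type values from 6.23 to 7.38. Fgf21, at -0.01, was also among them and had a low mean of 3.20.

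**Figure D3:**
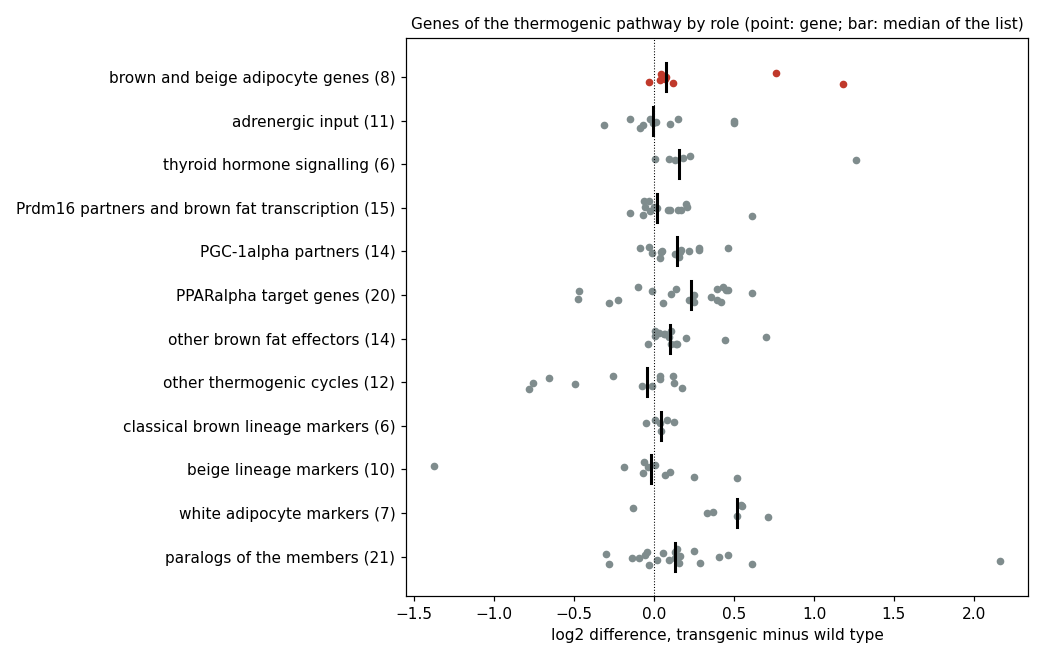
Log2 difference, transgenic minus wild type, of each measured gene (point) in 12 lists grouped by role, with the median of each list as a black bar and the number of measured genes in brackets. The brown and beige genes (red, median 0.07) sit near 0 except Cidea and Cox8b, while white adipocyte markers have a median of 0.52.

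Other effector genes of brown fat had 13 of 14 measured genes with a higher transgenic mean, a median difference of 0.10 and 0 passing. Without transgenic replicate 2 it was 10 of 14, with a median of 0.05. The 4 of smallest p were the mitochondrial protein Letmd1 (0.20), the proton channel Otop1 (0.44), the secreted factor Nrg4 (0.70) and Clstn3 (0.14). Clstn3 had a mean of 2.93, within the range of the olfactory receptors, and 4 of its 7 values were identical. Nrg4 read 8.07, 8.26 and 8.27 in transgenic libraries, against 6.93, 8.01, 7.06 and 8.01 in wild type, and its wild type values lay in 2 pairs. Otop1 was low, at 3.47, 4.00 and 3.92 in transgenic libraries, against 3.59, 3.16, 3.40 and 3.25 in wild type. Its value in transgenic replicate 1 lay below that in wild type replicate 1. Cox7a1, another muscle and brown fat subunit of cytochrome c oxidase, differed by 0.10, and the potassium channel Kcnk3 by 0.01. Cox7a1 was highest in transgenic replicate 3, at 5.51, and lowest in transgenic replicate 1, at 4.95.

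For genes of heat production by routes other than UCP1 the transgenic mean was higher in 5 of 12 and lower in 7, with a median difference of -0.04 and 0 passing. The median was -0.01 without either transgenic replicate 1 or wild type replicate 1, and -0.09 without wild type replicate 4. Ckb, creatine kinase B, read 8.56, 8.49 and 8.09 in transgenic libraries, against 9.22, 8.56, 9.27 and 9.49 in wild type (difference -0.76, limma adjusted p = 0.622). Every transgenic library lay below every wild type library, as for 2.44% of all probe sets, but wild type replicate 2 and transgenic replicate 1 shared the rounded value 8.56. The creatine transporter Slc6a8 differed by -0.66 and Gatm, which makes the creatine precursor, by -0.78, the mitochondrial creatine kinases Ckmt2 and Ckmt1 by 0.12 and -0.01, and Gamt, which completes creatine synthesis, by 0.13. None passed. Ckb and Atp2a2, the calcium pump of the endoplasmic reticulum (-0.49), are known to be high in smooth muscle. The smooth muscle marker list, given below, was high in wild type replicates 1, 3 and 4, and its part in these differences was not tested.

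Of 6 classical brown lineage markers 5 had a higher transgenic mean, with a median difference of 0.04, 0 passing and 0 at an unadjusted p under 0.05 in limma, against 7.94% of all probe sets. The median was 0.02 without transgenic replicate 2, 0.08 without wild type replicate 2, 0.01 without wild type replicate 4, and -0.0018 against wild type replicate 2 alone, with 3 of 6 higher. The 4 of smallest p were Fbxo31 (0.13), Zic1 (0.05), Mpzl2 (0.08) and Ebf3 (0.04). Zic1, a transcription factor of classical brown fat, read 2.34, 2.36 and 2.29 in transgenic libraries, against 2.34, 2.29, 2.41 and 2.10 in wild type. Of 10 beige lineage markers the transgenic mean was higher for 5 and lower for 5 (median difference -0.02, 0 passing), and the sign of that median turned to 0.02 without transgenic replicate 3 and 0.03 without wild type replicate 1.

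Among the beige markers, Slc27a1 (0.52), Cited1 (-1.37), Tbx1 (0.10) and Klhl13 (0.25) had the smallest p, and none passed. Cited1 read 4.53, 4.79 and 4.65 in transgenic libraries and 4.40 in wild type replicate 2, against 6.28, 6.41 and 7.05 in wild type replicates 1, 3 and 4. These are the 3 libraries high in the epididymal transcripts Serpina1f, Spink8 and Defb42. The part of those transcripts in the Cited1 values was not tested. Tmem26, a surface marker of beige precursors, differed by -0.19.

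Of 7 white adipocyte markers 6 had a higher transgenic mean, with a median difference of 0.52 and 0 passing. The 4 of smallest p were Nnmt (0.54), Rbp4 (0.71), Retn (0.52) and the homeobox gene Hoxc8 (0.55), and Lep, which encodes leptin, differed by 0.33. Against wild type replicate 2 alone the median was 0.06 and 4 of 7 were higher. No test compared the white with the brown and beige genes.

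Paralogs of the brown and beige genes were set beside them. Cidec, the droplet protein of white adipocytes, read 11.52, 11.58 and 11.53 in transgenic libraries, against 10.73, 11.46, 11.16 and 11.21 in wild type (difference 0.41), and Cideb differed by 0.02, against 0.76 for Cidea. Cox8a, the subunit 8 isoform of most tissues, differed by 0.25 and Cox8c by -0.03, against 1.18 for Cox8b. None of these passed. The 95% intervals of Cidec (0.02 to 0.79) and Cox8a (0.04 to 0.45) overlapped those of Cidea and Cox8b, while those of Cideb (-0.16 to 0.20) and Cox8c (-0.34 to 0.28) lay below them; differences between paralogs were not tested.

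The widest difference in any of the families was in an elongase other than Elovl3. Elovl6, which lengthens the products of fatty acid synthase, read 6.82, 9.15 and 10.10 in transgenic libraries, against 6.13, 6.82, 6.41 and 6.74 in wild type (difference 2.16, 95% interval 0.38 to 3.95, limma adjusted p = 0.622). Transgenic replicate 1 was at the level of wild type replicate 2, and transgenic replicates 2 and 3 were far above both. Elovl5 differed by 0.29, Elovl4 by 0.16, Elovl7 by 0.14, Elovl1 by -0.14 and Elovl2 by -0.30. Elovl4 and Elovl2 were dim, with means of 2.94 and 2.89. Elovl2 read 4.54 in wild type replicate 4, against 2.40 to 2.72 in all other libraries, so its negative difference rests on that library.

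Among the other families, Cpt1a, the outer membrane isoform of liver and many tissues, differed by -0.28 while Cpt2 differed by 0.61. Cpt1c differed by -0.04, the uncoupling protein Ucp3 by 0.06, and the dim genes Dio1 and Dio3 by 0.13 and 0.09. Ppargc1b and Pprc1, relatives of Ppargc1a, differed by 0.16 and -0.09, and Mecom, the relative of Prdm16, by -0.06. Of 22 paralogs listed 21 were measured, all but Ucp2. Among the 21, 14 had a higher transgenic mean and 0 passed.

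**Figure D4:**
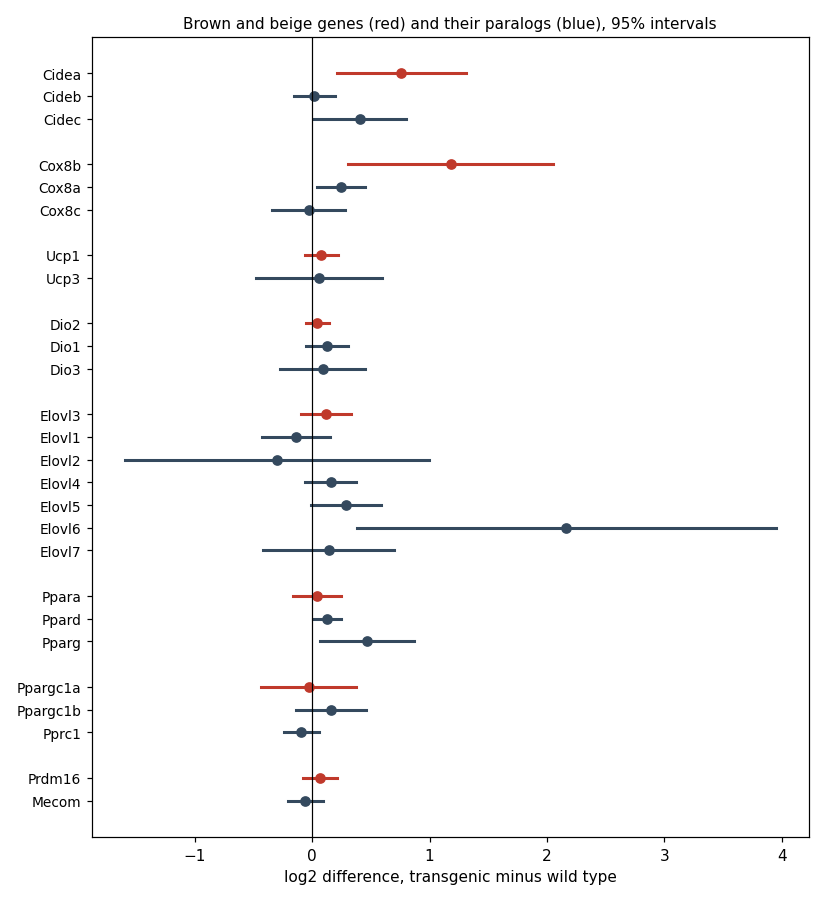
Log2 difference, transgenic minus wild type, of the brown and beige genes (red) and of their paralogs (blue), by family, with 95% limma intervals as lines. Cidea (0.76) and Cox8b (1.18) have the highest point of their families, and Elovl6 (2.16) that of the elongases.

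The genes whose values were most like those of each brown and beige gene were taken by Pearson correlation over the 7 libraries, among 2035 genes with a mean of at least 6 and an SD of at least 0.2. The 7 libraries share the same array processing, and the correlations are descriptions that carry no test. For Cox8b the nearest were Insig1 (r = 0.993, Spearman's rho = 1), which holds SREBP in the endoplasmic reticulum, the mitochondrial carrier Slc25a44 (0.983, rho = 0.893) and the glycerol phosphate dehydrogenase Gpd1 (0.982, rho = 0.964). Insig1 read 8.89, 9.83 and 9.87 in transgenic libraries, against 8.61, 8.95, 8.63 and 8.25 in wild type, in the same order of libraries as Cox8b.

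For Cidea the nearest were Tmem50b (r = 0.984, rho = 0.857), the autophagy gene Atg13 (0.981, rho = 1) and the apolipoprotein Apoc1 (0.968, rho = 0.893). For Ppargc1a they were Lrp2, Acsbg1 and Ptar1 (0.981 to 0.968). For Ucp1 the nearest by r were Ssr4, Dnpep and Mlec (0.990 to 0.926), but rho was 0.692, 0.673 and 0.486. For Dio2 they were Tgfbr2, Lgals3bp and Atf6 (0.985 to 0.883), and for Prdm16 Ik, Slc37a4 and Plpp6 (0.991 to 0.990). Dio2 and Prdm16 each had 5 of 7 values identical, so few libraries set r. The nearest for Elovl3 were Ufm1, Pde7a and Slc22a4 (0.888 to 0.860), and for Ppara Slc7a6, Scara5 and Afap1 (0.945 to 0.887). Ucp1, Dio2 and Elovl3 were dim. Genes with r over 0.9 numbered 113 for Cox8b, 46 for Cidea and 24 each for Prdm16 and Ppargc1a. They numbered 3 for Ucp1, 2 each for Dio2 and Ppara and 0 for Elovl3.

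Markers of the cells in the pads were set beside these values. Adipocyte markers were high in all 7 libraries, with Adipoq, the adiponectin gene, at 11.83, 11.80 and 11.69 in transgenic libraries, against 11.09, 11.74, 11.34 and 11.56 in wild type. All 11 measured had a higher transgenic mean (median difference 0.40, 0 passing; 0.26 without wild type replicate 1; 8 of 11 and 0.04 against wild type replicate 2 alone), with the smallest p in the glucose transporter Slc2a4 (0.83), the lipases Pnpla2 (0.46) and Lipe (0.40) and Dgat2 (0.59). Their mean level was 11.44 to 11.55 in transgenic libraries, 11.40 in wild type replicate 2 and 10.80 to 11.16 in the other wild type libraries. Its Cidea value, 4.13, lay below all 3 transgenic values, and its Cox8b value, 4.99, lay between those of transgenic replicates 1 and 2.

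Other cell types also differed between libraries. The smooth muscle list had all 11 genes with a lower transgenic mean, with a mean level of 6.11 to 6.73 in transgenic libraries, 6.55 in wild type replicate 2 and 8.39 to 8.91 in the others, led by Acta2 (-1.25), Des (-2.05), Cnn1 (-3.61) and Actg2 (-3.26). In the epididymis list 3 of 9 genes had a lower transgenic mean, Spink8 (-4.65), Defb42 (-4.34) and Serpina1f (-5.79), and the mean of the list ran from 2.71 to 3.31 in transgenic and from 2.62 to 5.26 in wild type libraries. Its other 6 genes, Spint4 (0.20) among them, were higher on average in transgenic fat, with Lcn8 at 4.14 and Adam7 at 4.69 in transgenic replicate 1. Sperm markers, 7 of 7 with a lower transgenic mean, had a mean level of 3.13 to 3.25 in transgenic libraries, and of 7.53 in wild type replicate 4 against 3.07 to 3.41 in the other wild type libraries. Prm2, a protamine of sperm, read 9.76 in wild type replicate 4, and the median difference of the list was -1.08 with that library and -0.02 without it.

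**Figure D5:**
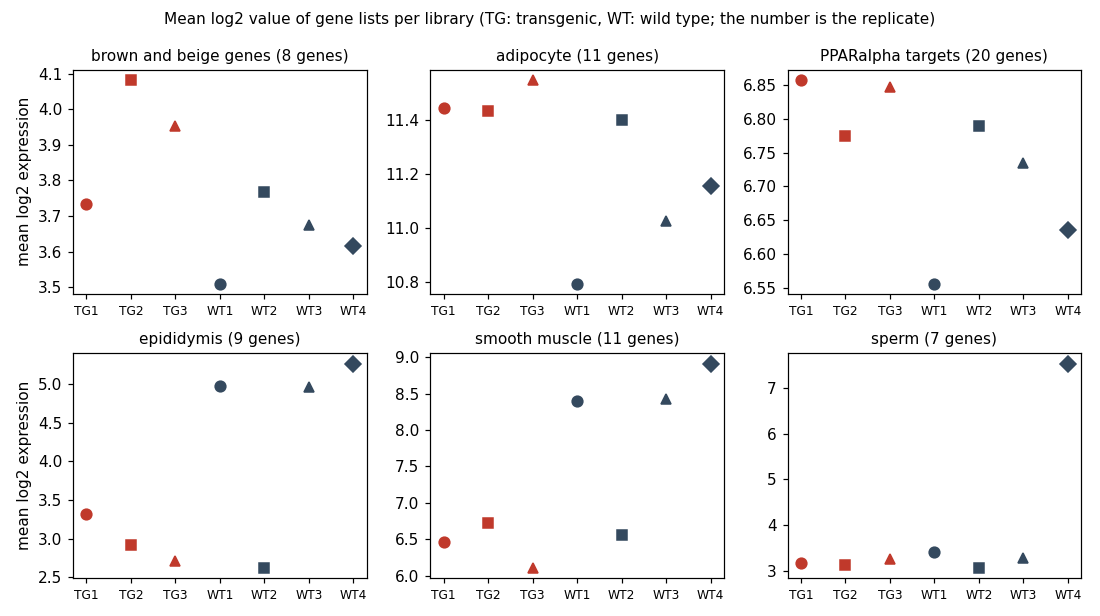
Mean log2 expression of 6 gene lists in each library, transgenic (red, left) and wild type (blue, right), with a separate vertical scale in each panel that does not start at 0. Epididymis and smooth muscle means are high in wild type replicates 1, 3 and 4, and the adipocyte mean of wild type replicate 2 (11.40) lies close to the transgenic libraries.

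Skeletal muscle, which shares Cox8b and Ppargc1a with brown fat, was checked by 12 markers. The mean of the list was 4.15 to 4.26 in transgenic and 4.28 to 4.57 in wild type libraries, lower in every transgenic library. The myosins Myh1, Myh2 and Myh4 read between 2.44 and 2.83 in all 7 libraries. Of the 4 with the smallest p, Acta1 differed by -2.01, Pygm by -0.15, Ckm by -0.98 and Myl1 by 0.50; none passed. The median difference of the list was -0.0035, and its part in the Cox8b values was not tested.

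In the remaining marker lists 0 genes passed. Macrophage markers had 8 of 9 genes with a lower transgenic mean, a median difference of -0.59 (-0.25 without wild type replicate 3, -0.30 without replicate 1 and -0.95 without replicate 4), a mean level of 7.73 to 8.11 in transgenic and 7.39 to 8.85 in wild type libraries, and Cd163 (0.89), Itgax (-1.33), Cd68 (-0.94) and Trem2 (-0.71) as the 4 of smallest p. Endothelial markers were higher on average in 7 of 7, with Pecam1 (0.20), Cdh5 (0.29), Vwf (0.11) and Tie1 (0.15) first. Mesothelial markers were higher on average in 5 of 6 (median difference 0.44), but in 1 of 6 against wild type replicate 2 alone (median -0.38) and with the epididymis score as a covariate (-0.30). The median was 0.21 without transgenic replicate 1, 0.15 without wild type replicate 1 and 0.76 without wild type replicate 2. Krt19 (-0.79), Wt1 (0.08), Lrrn4 (0.69) and Upk3b (0.82) had the smallest p. Of 4 measured markers of sympathetic nerve, the source of noradrenaline in fat, 3 had a higher transgenic mean. Th, tyrosine hydroxylase, differed by 0.35, Slc18a2 by 0.12, Dbh by -0.05 and Slc6a2 by 0.01, and all 4 were dim. The part of these cell types in the Cidea and Cox8b values was not tested; the values against wild type replicate 2 alone are given with each gene.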

How the data were processed

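RNA of 7 epididymal fat samples (3 aP2-XBP1 transgenic, 4 wild type) was measured on 1-colour arrays. The deposited values are log2 expression per probe set, made by the authors with RMA, per the submitters' processing notes; its version is not given in the sources used here. Since RMA equalises arrays, a change shared by most genes can be hidden. The table holds 35556 probe sets, of which 21789 have exactly 1 symbol in the platform annotation, 1621 several and 12146 none listed; 0 columns of sample values were left unused.

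Groups came from the labels. Transgenic minus wild type was fitted on all 21789 probe sets with limma 3.58.1 in R 4.3.3 (lmFit, eBayes, two-sided), with genotype as the only term and Benjamini-Hochberg adjustment at 0.05; adjusted p-values in the text are from this fit unless an alternative is named. Folds were back-calculated from log2 differences. Single genes also had an exact two-sided permutation test over 35 splits. The fit was tested on simulated data. Replicate numbers were not used to pair the samples. Deviations of same-numbered samples from their group means correlated at -0.14, -0.09 and 0.06. So few values cannot exclude a pairing or a shared batch.

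The genes and lists were chosen with earlier results of these data known. All 9 genes and their measured paralogs were named. Of other lists, the 4 genes with the smallest p were named where none passed, besides defining markers. Genes added for their role, such as Gamt, Ckmt1, Ebf2, Esrra, Tfam, Lep, Pdk4, Fgf21, Cox7a1, Kcnk3, Atp2a2, Tmem26, Prm2, Lcn8 and Adam7, were named after their values were seen. Promoter sequences are from RefSeq. Alternatives were the replicate block, other scalings, filters, variance models and weights, and left-out libraries. Figures used Python 3.11.15, matplotlib 3.10.9 and pandas 2.3.3.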

Additional observations from a re-analysis of the deposited data

Results flagged for a closer look

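In 4 of the 9 probe sets examined, 1 wild type library stood apart from the other 3 by more than Dixon's 95% criterion for 4 values. Chance meets it in about 1 group of 20 where values are untied, and ties make it easier to meet. In Prdm16 and Dio2 the other 3 wild type values were identical. The share of all probe sets that meet the criterion was not counted, so 4 of 9 cannot be read as an excess. Cidea read 3.81 in wild type replicate 1, against 4.12 to 4.14 in the other wild type libraries. Prdm16 read 3.88 in wild type replicate 1, against 4.06 in each of the others. Ucp1 read 2.56 in wild type replicate 2, against 2.65 to 2.66 in the others. Dio2 read 2.73 in wild type replicate 4, against 2.81 in each of the others.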

How the results depend on the processing

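Cidea and Cox8b kept a positive difference under all 18 alternatives each, from 0.53 to 1.02 and from 0.70 to 1.61. Neither ever passed the adjusted test (limma adjusted p from 0.198 to 0.931 and from 0.191 to 1). Some alternatives cannot change the difference of a gene with 1 probe set, and there it stayed at 0.76 and 1.18. These left out the dimmest 25%, used every probe set of the table or 1 per gene, or averaged the probe sets of a gene. A variance model with an intensity trend could not change it either. The median difference of the 8 genes ran from 0.03 to 0.11. Of the 8 genes 4 to 8 had a higher transgenic mean; the 4 came from leaving out the dimmest 25% of probe sets by mean, where 5 of the genes remained. The replicate block, whose numbers are not known to pair the samples, gave 8 of 8 higher and 0 calls. Ppargc1a turned positive with the replicate block (0.022), a repeated quantile normalization (0.0100), a shift of the arrays to 1 median (0.0113) and the mean of its probe sets (0.0061), and ran from -0.179 to 0.0386 with 1 library left out. Ppara turned negative against wild type replicate 2 alone (-0.15) and with the epididymis marker score as a covariate (-0.13), and ran from -0.0059 to 0.103 with 1 library left out; the cause was not tested. The number of probe sets called ran from 0 to 7 higher and from 0 to 84 lower with 1 library left out, the highest of both without wild type replicate 2, and was 3 lower with the marker score as a covariate; none was one of the 8 genes. At an unadjusted p under 0.05, the shift to 1 median gave 1900 higher and 446 lower. Dim signal limits Ucp1, Dio2 and Elovl3, and 7 arrays limit the rest. By mean level 6 of the 8 genes, Cidea among them, lay below the median of all probe sets tested. Serpina1f, Spink8 and Defb42, 3 of the 9 measured epididymal transcripts, were also high in wild type replicates 1, 3 and 4. Their part in the differences was not tested. Cox8b differed by 0.71 with the epididymis marker score as a covariate and by 0.70 against wild type replicate 2 alone.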
